A study of Mus musculus with 10 samples.

Results

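The 34 genes described here encode subunits of cytochrome c oxidase (complex IV of the respiratory chain) and of ATP synthase (complex V). They were chosen by gene symbol, and no measured value entered the choice. Of the 29 members encoded in the nucleus, 14 belong to cytochrome oxidase and 15 to ATP synthase, and of the 5 members encoded in mitochondrial DNA (mtDNA), 3 belong to cytochrome oxidase (mt-Co1, mt-Co2 and mt-Co3) and 2 to ATP synthase (mt-Atp6 and mt-Atp8). They were read among the 27998 genes listed for the libraries of embryonic day E16.5 and the 32285 genes listed for the E15.5 and E17.5 libraries.

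Cytochrome oxidase takes electrons from cytochrome c, passes them to oxygen and pumps protons out of the mitochondrial matrix, and ATP synthase uses the returning protons to make ATP. The catalytic core of cytochrome oxidase and the proton channel of ATP synthase are made in the mitochondrion from mtDNA, whereas the surrounding subunits, the rotor and the catalytic head of ATP synthase are encoded in the nucleus and imported. Several nuclear subunits come in tissue isoforms: Cox6a2 and Cox7a1 are known from heart and skeletal muscle, Cox4i2 from lung and vessel wall, and their partners Cox6a1, Cox7a2 and Cox4i1 from most tissues.

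Transcripts were counted in single cells of dissociated mouse back skin, with unique molecular identifiers (UMIs) read at the 3' end of each transcript. MOF cKO embryos carried floxed Mof (gene symbol Kat8, an acetyltransferase of lysine 16 on histone H4) with Krt14-Cre (MOFfl/fl/K14Cre), and QPC cKO embryos carried floxed Uqcrq, which encodes a subunit of complex III, with the same driver (QPCfl/fl/K14Cre). Controls were wild-type or heterozygous littermates, all embryos were of mixed C57Bl/6J and CD-1 background per the study, and Krt14-Cre acts in the epithelium, so that the floxed gene is not targeted in fibroblasts. Each of E15.5 and E16.5 had 2 libraries of either genotype, and E17.5 had 1 control and 1 QPC cKO library. The E15.5 MOF cKO library 6 comes from an embryo in which the deletion was mosaic, and library 5 from one with an even deletion. The stages also differ in library chemistry, so levels were compared between stages by no test other than that of the MOF cKO effect.

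A cell was kept if it had between 1000 and 6000 detected genes and less than 10% of its UMIs from mtDNA, which left 716 to 10653 cells per library. Among them, cells with at least 10 UMIs of Krt5 and Krt14 were taken as epithelial, and cells with at least 30 UMIs of Col1a1 and Col3a1 and under 10 of the keratins as fibroblasts. The epithelial gate held 2635 and 2896 cells in the E15.5 controls, 1061 and 1648 in MOF cKO, 266 and 512 in the E16.5 controls, 30 and 39 in MOF cKO, 3069 in the E17.5 control and 1162 in QPC cKO. The kept cells of 2 libraries shared at most 0.354% of the barcodes of the smaller one. Levels are given as CPM, the UMIs of a gene scaled to the usual fixed total of UMIs in the gate. Some members have near-identical copies or pseudogenes elsewhere in the genome, and how the counting split their reads was not tested. A UMI stands for 1 captured transcript whatever its length, so CPM was not scaled to length.

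Libraries differed in how cleanly the gates separated the cell types. In the E17.5 control, 1286 of the 3069 epithelial gate cells also reached the fibroblast limit, 1496 had fewer than 20 keratin UMIs, and the summed level of 9 fibroblast markers (29486 CPM) exceeded that of 10 epithelial markers (17020 CPM). E16.5 Control 1 stood apart in the same way, with 77 of 266 epithelial gate cells at the fibroblast limit, 9624 CPM of fibroblast markers and 491 CPM of 9 muscle markers. In the other 8 libraries the fibroblast markers summed to 924 to 5471 CPM. Hemoglobin and other erythroid transcripts took 2371 to 25546 CPM of the epithelial gate at E15.5 and E16.5 and 32.5 and 468 CPM at E17.5. Sums and counts of calls were therefore also taken over cells whose keratin UMIs exceed their collagen UMIs, of which 1692 remained in the E17.5 control, 1052 in QPC cKO and 191 and 492 in the E16.5 controls. The targeted gene Kat8 read 13.0 and 14.0 CPM in epithelial cells of the E15.5 controls against 13.0 and 10.0 CPM in MOF cKO 5 and 6, and 17.6 and 14.8 CPM in the E16.5 controls against 8.66 and 3.75 CPM in MOF cKO, the last values from 5 and 3 UMIs. In fibroblasts Kat8 read 9.18 and 9.62 CPM against 6.83 and 5.98 CPM at E15.5 and 9.60 and 8.23 CPM against 2.81 and 5.39 CPM at E16.5, so that it was lower there too. UMIs at the 3' end need not fall in the deleted part of the gene. Uqcrq read 106 CPM in the E17.5 control epithelium and 43.9 CPM in QPC cKO (131 and 37.0 CPM where keratin exceeded collagen).

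The promoters of 24 of the 29 nuclear members were found in the RefSeq table of GRCm38.p6, which gives 250 bases before and 50 after each gene's start. A pair of cytochrome oxidase subunit VIIa isoforms is shown first, since the widely used Cox7a2 read 195 to 682 CPM across the gates below and the restricted Cox7a1 at most 45.3 CPM. Capitals mark matches on either strand to the GC box GGGCGG, which is present in 35.9% of all 27025 promoters and in 9 of the 24 member promoters. Cox7a2 (chr9:79759804-79760103, minus strand) holds 1 such match and 20 CG pairs, and Cox7a1 (chr7:30183921-30184220, plus strand) holds none and 7 CG pairs. The median was 19.5 CG pairs over the member promoters and 7 over all promoters.
Cox7a2: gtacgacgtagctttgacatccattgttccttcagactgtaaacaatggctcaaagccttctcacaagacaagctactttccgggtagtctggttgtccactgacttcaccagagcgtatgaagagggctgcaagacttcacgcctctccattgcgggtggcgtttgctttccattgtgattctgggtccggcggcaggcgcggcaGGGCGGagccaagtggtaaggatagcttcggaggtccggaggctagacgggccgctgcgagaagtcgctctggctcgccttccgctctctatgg
Cox7a1: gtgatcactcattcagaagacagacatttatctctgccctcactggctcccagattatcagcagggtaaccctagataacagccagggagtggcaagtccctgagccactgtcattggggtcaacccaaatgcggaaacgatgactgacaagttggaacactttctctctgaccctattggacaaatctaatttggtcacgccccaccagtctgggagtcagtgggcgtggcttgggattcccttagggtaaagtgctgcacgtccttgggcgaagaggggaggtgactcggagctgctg

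The next 2 promoters belong to Cox6a1, the widely used partner of Cox6a2, and to Cox5a, the member that differed between epithelium and fibroblasts with the lowest p. In Cox6a1 (chr5:115348909-115349208, minus strand) capitals mark 2 matches to the NRF1 motif (GCGCA, then any base, then GCGC), 1 to the ETS motif CCGGAAG and 2 GC boxes. In Cox5a (chr9:57520982-57521281, plus strand) they mark 2 GC boxes. The NRF1 motif was found in 6 of the 24 member promoters (Atp5g2, Atp5g3, Atp5h, Atp5k, Atp5o and Cox6a1) and in 4.78% of all promoters. The ETS motif was found in 7 and in 9.12%, the YY1 motif AAGATGG in 3 (Atp5f1, Atp5j2 and Cox7c) and in 6.48%, and TATAAA in 1 (Atp5l) and in 14.2%. These matches describe the letters in the window and not the binding of a factor.
Cox6a1: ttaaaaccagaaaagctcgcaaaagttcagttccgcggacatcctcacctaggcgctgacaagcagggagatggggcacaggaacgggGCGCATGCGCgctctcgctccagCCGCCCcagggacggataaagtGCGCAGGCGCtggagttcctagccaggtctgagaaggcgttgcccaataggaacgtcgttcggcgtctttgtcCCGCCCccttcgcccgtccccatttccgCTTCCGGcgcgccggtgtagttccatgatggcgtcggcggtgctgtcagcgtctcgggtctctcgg
Cox5a: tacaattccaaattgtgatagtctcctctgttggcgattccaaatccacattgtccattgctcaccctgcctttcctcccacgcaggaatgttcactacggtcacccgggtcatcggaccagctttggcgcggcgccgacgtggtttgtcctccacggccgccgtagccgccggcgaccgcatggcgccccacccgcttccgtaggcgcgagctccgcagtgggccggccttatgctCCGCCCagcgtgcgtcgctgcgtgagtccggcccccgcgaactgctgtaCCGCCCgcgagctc

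Most nuclear members were expressed at a similar order of magnitude in the epithelial and fibroblast gates. Among the lower was Atp5k (88.4 to 339 CPM in the epithelial gate). Among the higher was Cox4i1, the common isoform of subunit IV (805 to 1264 CPM in the epithelial gate and 751 to 1148 CPM in fibroblasts). Cox6c lay above that fibroblast range in E16.5 Control 2 and the E17.5 control. In the other gates only the isoform sets were read. The exceptions were the tissue isoforms. Cox4i2 was highest in the pericyte gate, which was set by at least 5 UMIs of Rgs5, Kcnj8 and Abcc9. There it read 819 and 917 CPM in the E15.5 controls, 797 and 765 CPM in MOF cKO, 879 and 696 CPM in the E16.5 controls, 1544 and 749 CPM in MOF cKO, 567 CPM in the E17.5 control and 1001 CPM in QPC cKO. The highest value was that of E16.5 MOF cKO 1 and the lowest that of the E17.5 control. The genotypes were not compared by a test in this gate. The gate held 2.53 to 5.43% of the kept cells of a library and 48.6 to 86.3% of its Cox4i2 UMIs. From 9 of 21 (E16.5 MOF cKO 1) to 341 of 411 (E15.5 MOF cKO 6) of its cells were also in the fibroblast gate, which held 32.3 to 83.0% of the Cox4i2 UMIs and at E17.5 more than the pericyte gate (51.0 and 48.7% in the control, 81.6 and 66.5% in QPC cKO). Per UMI the fibroblast gate read 29.9 to 98.8 CPM, and the epithelial gate 1.73 to 39.4 CPM. The highest epithelial values, 39.4 CPM in E16.5 Control 1 and 31.3 CPM in the E17.5 control, belong to the libraries with the most fibroblast transcripts in that gate.

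Over 60 sums (6 gates in 10 libraries), the genes whose log2(CPM + 1) followed Cox4i2 most closely were Rgs5 (Pearson r = 0.93), Gucy1a1 (0.93), Nr2f1 (0.91), Cyp4b1 (0.91) and Higd1b (0.90), out of 8446 candidate genes. Rgs5 is a gene of the gate itself, and the sums of a library share its depth, so the values describe the pattern. Ndufa4l2, a paralog of the complex IV subunit Ndufa4 that hypoxia induces in other tissues, was also high in the pericyte gate (618 to 1451 CPM). The common isoforms were less uneven. Cox4i1 read 804 to 1431 CPM in pericytes, so that Cox4i2 transcripts reached the order of Cox4i1 transcripts there.

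Cox6a2 was highest in the muscle gate (at least 10 UMIs of Acta1, Myl1 and Tnnc2), where it read 123, 168, 142 and 41.5 CPM in E15.5 Control 2, Control 3, MOF cKO 5 and MOF cKO 6, 0, 20.6, 39.2 and 67.3 CPM in the E16.5 libraries, and 89.9 and 102 CPM in the E17.5 control and QPC cKO. These sums rest on 4 to 39 cells, and the 0 in E16.5 Control 1 on 6 cells. Its closest genes over the 60 sums were the muscle genes Tnnc1 (r = 0.89), Apobec2 (0.89), Trim55 (0.88), Smyd1 (0.87) and Ckm (0.87), each highest in the muscle gate. Cox8b, the muscle isoform of subunit VIII, read 8.31 to 38.5 CPM there and at most 2.85 CPM in the epithelial gate, against 580 to 1140 CPM for the common Cox8a in muscle.

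Cox7a1, named for heart and muscle, read at most 15.2 CPM in the muscle gate of this embryonic skin. There 6 of the 10 libraries had no Cox7a1 UMI, among only 76511 to 435444 UMIs of all genes, so that these sums could hold few. The pericyte gate read 2.71 to 45.3 CPM (median 11.9), the immune gate 1.70 to 14.3 CPM and fibroblasts 1.14 to 4.74 CPM. In pericytes of the E17.5 control it read 10.3 CPM (50 UMIs in 219 cells) and in those of QPC cKO 31.7 CPM (166 UMIs in 252 cells), with no replicate at this stage. The muscle gate lay above the pericyte gate in 2 libraries, at 15.2 CPM (13 UMIs) in the E17.5 control and 11.0 CPM (1 UMI) in E16.5 Control 1, and the order of these gates was not tested. The epithelial gate read at most 1.04 CPM, while Cox7a2 read 331 to 531 CPM in the epithelial gates of the controls. The gene closest to Cox7a1 was Trpv2 (r = 0.83), followed by Plekha2 (0.77), Angpt1 (0.76), Crispld2 (0.76) and Ramp1 (0.75). Cox6a2 also appeared in the immune gate, at 0.253 to 5.10 CPM in 9 libraries and at 21.1 CPM in E16.5 MOF cKO 1, where 1 cell held 24 of the 31 UMIs.

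**Figure D1:**
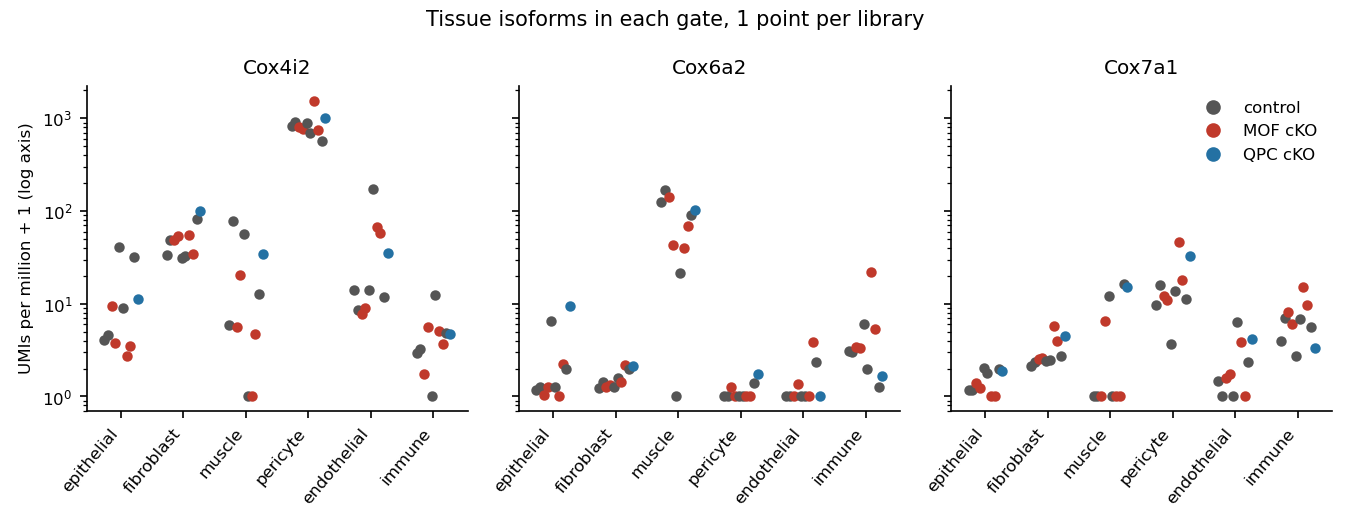
CPM plus 1 (log axis) of Cox4i2, Cox6a2 and Cox7a1 in 6 gates, 1 point per library, coloured as control, MOF cKO or QPC cKO. Cox4i2 is highest in the pericyte gate in every library (567 to 1544 CPM), Cox6a2 in the muscle gate in 9 of them, and Cox7a1 stays at or under 45.3 CPM.

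Epithelial cells of the control libraries carried more transcripts of these complexes than fibroblasts of the same libraries. With the library as a block, 19 of the 34 members were higher in the epithelium and 4 lower, by edgeR's quasi-likelihood test with adjustment over 14505 genes. Of all genes tested 61.2% passed in either direction, with 30.5% of all genes tested higher and 30.8% lower. Over the members the fitted log2 difference had a median of 0.21 for nuclear ATP synthase, 0.19 for nuclear cytochrome oxidase, 0.42 for the mtDNA-encoded cytochrome oxidase and 0.57 for the mtDNA-encoded ATP synthase genes, beside 0.02 over all genes tested. Where keratin exceeded collagen in the epithelium, again 19 members were higher and 4 lower, beside 65.8% of 14293 genes called.

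Cox5a, a matrix-facing subunit of cytochrome oxidase (chr9:57521274-57532426), had the lowest p. It read 507, 544, 480, 560 and 301 CPM in the epithelial gates of E15.5 Control 2 and 3, E16.5 Control 1 and 2 and the E17.5 control, and 306, 321, 272, 303 and 161 CPM in the matching fibroblasts. The lowest epithelial value thus lay below the highest fibroblast value, but each library's epithelium was above its own fibroblasts. The fitted difference was 0.87 on the log2 scale (SE 0.05, edgeR adjusted p = 0.000218, higher in 5 of 5 libraries).

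Cox7a2l, which links complex III with complex IV in supercomplexes (chr17:83501918-83517330), differed by as much. In the same order it read 397, 368, 488, 547 and 332 CPM in the epithelium and 206, 191, 331, 263 and 224 CPM in fibroblasts. The log2 difference was 0.87 (SE 0.13, edgeR adjusted p = 0.00238, higher in 5 of 5). Its relative Cox7a2 read 331 to 531 CPM and 277 to 614 CPM, with a log2 difference of 0.06 (SE 0.06, edgeR adjusted p = 0.413).

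The 5 mtDNA-encoded members passed the test as higher in the epithelium. The catalytic subunit mt-Co1 (chrM:5328-6872) read 4069, 4101, 4689, 4403 and 4928 CPM against 2740, 2910, 2947, 2728 and 3553 CPM. Each epithelial value was above each fibroblast value, and the log2 difference was 0.63 (SE 0.08, edgeR adjusted p = 0.00142). For mt-Co2, mt-Co3, mt-Atp6 and mt-Atp8 the log2 differences were 0.42, 0.34, 0.56 and 0.59, higher in 5 of 5 libraries each. mt-Atp8 (13.0 to 94.4 CPM over these 10 sums) was far below mt-Atp6 (5538 to 10598 CPM). The genes overlap by 43 bases, lie on 1 transcript and share its 3' end, so that a 3' count cannot tell their levels apart.

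The nuclear subunits of the ATP synthase head, Atp5a1 and the catalytic Atp5b, were higher in the epithelium by 0.49 and 0.50 on the log2 scale (SE 0.07 each). The other nuclear members that were higher were Atp5c1, Atp5d, Atp5f1, Atp5g3, Atp5l, Atp5o, Cox4i1, Cox5b, Cox6b1 and Cox8a, by 0.19 to 0.32. The 3 genes for the c-ring of ATP synthase, which encode the same mature protein, had values of 0.26 (SE 0.05) for Atp5g3, which passed, 0.19 (SE 0.08) for Atp5g1 and 0.02 (SE 0.06) for Atp5g2. The differences between them were not tested.

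The 4 members lower in the epithelium were Cox4i2, Cox7a1, Cox6c and Atp5e, the epsilon subunit of ATP synthase. Cox6c, a small membrane subunit (chr15:35925886-35938246), was the abundant member among them. It read 649, 667, 570, 902 and 817 CPM in the epithelium and 1090, 1012, 890, 1492 and 1180 CPM in fibroblasts, a log2 difference of -0.60 (SE 0.06, edgeR adjusted p = 0.000680, lower in 5 of 5). Atp5e was lower by a log2 difference of -0.32 (SE 0.08, edgeR adjusted p = 0.0140). Cox4i2 read 3.04, 3.63, 39.4, 7.92 and 31.3 CPM against 32.4, 47.5, 29.9, 31.8 and 80.2 CPM, which is higher in the epithelial gate of E16.5 Control 1 and lower in the other 4, with a log2 difference of -2.02 (SE 0.61, edgeR adjusted p = 0.0290). Cox7a1 read 0.174 to 1.04 CPM against 1.14 to 1.72 CPM, with a log2 difference of -1.56 (SE 0.45, edgeR adjusted p = 0.0246). The call of Cox4i2 was lost without E16.5 Control 2 (edgeR adjusted p = 0.0798), E15.5 Control 2 (0.0881) or E15.5 Control 3 (0.0795), and that of Cox7a1 without E15.5 Control 2 (0.0823) or E15.5 Control 3 (0.0743).

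Genes that build or serve the complexes were read beside the members. Of 11 genes of complex III and cytochrome c, 8 were higher in the epithelium and 0 lower, led by the core subunit Uqcrc1 at 1.12 (SE 0.11). The 8 other mtDNA-encoded genes were each higher (median 0.49). Of 13 genes of mtDNA expression and mitochondrial biogenesis 9 were higher, among them the coactivator Ppargc1b at 1.70 (SE 0.13), its nuclear receptor partner Esrra at 1.04 (SE 0.15) and the mtDNA packaging factor Tfam at 0.57 (SE 0.08). Of 23 tested cytochrome oxidase assembly genes 7 were higher, such as Cox10 at 0.84 (SE 0.11), which is close to the 30.5% of all genes called higher, and Cox16 and Cox20 were lower. The 4 tested genes of ATP synthase assembly and regulation were higher.

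**Figure D2:**
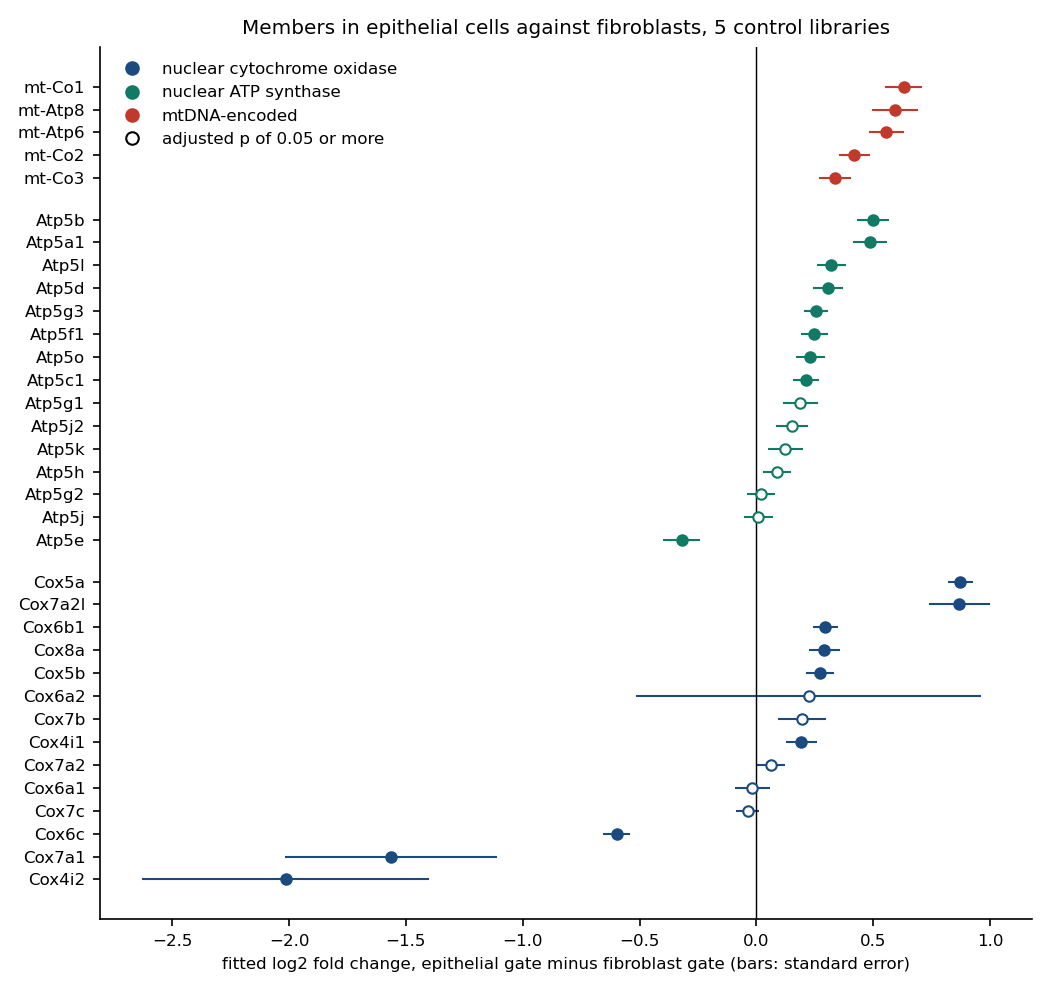
Fitted log2 fold change of each member, epithelial gate minus fibroblast gate over the 5 control libraries, with bars for the standard error and open points for an adjusted p of 0.05 or more. The 5 mtDNA-encoded genes lie between 0.34 and 0.63, Cox5a and Cox7a2l at 0.87, and Cox4i2 and Cox7a1 at -2.02 and -1.56.

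Within the epithelium, cells with more Krt1 and Krt10 than Krt5 and Krt14 UMIs were called suprabasal and the rest basal. The suprabasal gate held 49, 150, 16, 15 and 70 cells in the 5 controls. Of 33 members tested, 6 were higher and 1 lower in suprabasal cells, beside 14.7% of 10440 genes higher and 19% lower. The count fell to 3 without E15.5 Control 2, to 4 without E15.5 Control 3 or the E17.5 control and to 5 without either E16.5 control. Cox7a2l, Atp5g1 and Atp5d were called in each of these fits. The share of all genes called in them is not given here, so the counts show only that the calls move. Restricted to cells with more keratin than collagen UMIs, the fit had 4 members higher (Atp5g1, Atp5d, Cox7a2 and Atp5b) and 3 lower (Cox7a2l, mt-Co1 and Cox4i1), beside 38.9% of 9897 genes called. In the whole gate the mtDNA-encoded members did not pass, with log2 differences of -0.10 to -0.06.

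Cox7a2l was the member lower in suprabasal cells. It read 226, 235, 241, 364 and 215 CPM there and 401, 377, 510, 553 and 335 CPM in basal cells of the same libraries. The suprabasal 364 CPM of E16.5 Control 2 exceeded the basal 335 CPM of the E17.5 control, and otherwise the groups did not overlap. The log2 difference was -0.64 (SE 0.10, edgeR adjusted p = 0.00157, lower in 5 of 5). The suprabasal level lay within the range of fibroblasts, 191 to 351 CPM over all libraries, in 4 of the 5.

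Atp5g1, 1 of the c-ring genes, was higher in suprabasal cells. It read 821, 824, 550, 867 and 652 CPM against 589, 609, 497, 612 and 378 CPM, a log2 difference of 0.60 (SE 0.11, edgeR adjusted p = 0.00269, higher in 5 of 5). The other c-ring genes Atp5g2 and Atp5g3 differed by -0.16 and -0.08 and did not pass. Atp5d, the delta subunit of the central stalk, read 684, 653, 784, 618 and 709 CPM against 529, 538, 630, 527 and 499 CPM, a log2 difference of 0.47 (SE 0.10, edgeR adjusted p = 0.00625). Cox6b1, Cox7a2 and Atp5b were higher by 0.32, 0.31 and 0.30, but Cox6b1 was called in none of the fits that left out a library, and Cox7a2 and Atp5b only in that without E16.5 Control 2.

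The muscle isoform Cox6a2 was also detected in suprabasal cells. It read 5.58, 3.06, 3.25, 8.46 and 2.64 CPM there, from 6, 11, 1, 2 and 5 UMIs, and 0.0451, 0.0741, 5.64, 0 and 0.914 CPM in basal cells. The fitted log2 difference was 3.40 (SE 1.01, edgeR adjusted p = 0.0297), and 4 of 5 libraries were higher. The call was lost without E16.5 Control 2 (edgeR adjusted p = 0.0637) or E15.5 Control 2 (0.0815), and without E15.5 Control 3 the gene did not pass the filter on low counts. Leaving out cells with at least 10 UMIs of the muscle genes lowered the basal values to at most 0.287 CPM and left the suprabasal values as they were, after which the gene did not pass that filter either. Among other genes of the complexes, Ndufa4l2 was higher in suprabasal cells by 2.09 (SE 0.12), the assembly factor Coa4 by 1.57 (SE 0.24) and the isoform Cox6b2 lower, at -1.59 (SE 0.31). Of 11 genes of complex III and cytochrome c 5 were higher and 1 lower, beside the 14.7% and 19% over all genes.

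Summed over the 29 nuclear members, epithelial cells read 13772 and 13984.5 CPM in the E15.5 controls and 12159 and 14212 CPM in MOF cKO 5 and 6. At E16.5 they read 13525.5 and 16793 CPM in the controls and 11852 and 12449 CPM in MOF cKO. On this scale the MOF cKO sums lay below both controls at E16.5, which did not hold under the other total given below, and on either side of them at E15.5. The log2 ratio, taken as the difference between the groups' means of log2 CPM, was -0.08 (SD of the difference 0.16, n = 2 and 2) at E15.5 and -0.31 (SD 0.23, n = 2 and 2) at E16.5. At E16.5 it was -0.47 without Control 1, -0.16 without Control 2 and -0.13 in the looser gate, and at E15.5 it ranged from -0.19 to 0.03 with 1 library left out. The choice of members gives these sums no test. The share of ribosomal protein transcripts also differed between libraries, at 28.2 and 28.8% in the E15.5 controls, 35.2 and 28.0% in MOF cKO, 22.7 and 31.1% in the E16.5 controls and 32.7 and 34.8% in MOF cKO. With mtDNA-encoded and ribosomal protein genes left out of the total, the nuclear sums were 18468 and 25730 CPM in the E16.5 controls and 18325 and 19983 CPM in MOF cKO, so that MOF cKO 2 lay between the controls, and the log2 ratio was -0.19. At E15.5 they were 20555 and 20960 CPM against 20011 and 21345 CPM, with a log2 ratio of -0.01. In cells with more keratin than collagen UMIs the E16.5 controls read 13727 and 16979 CPM in the original scaling, and the MOF cKO values were the same.

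The 5 mtDNA-encoded members summed to 31987 and 29631.5 CPM in the E15.5 control epithelium and to 26768 and 36108 CPM in MOF cKO 5 and 6. At E16.5 they summed to 25079 and 23015 CPM in the controls and 15887 and 18494 CPM in MOF cKO, with a log2 ratio of -0.49 (SD 0.18). In cells with more keratin than collagen UMIs the controls summed to 28353 and 23249 CPM and the log2 ratio was -0.58. These members supply 60.5 to 69.1% of the mtDNA UMIs in both gates, and the cell filter limits those UMIs, so their sums are capped by it. Without the limit the log2 ratio at E16.5 was -0.18, and in the looser gate -0.19.

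**Figure D3:**
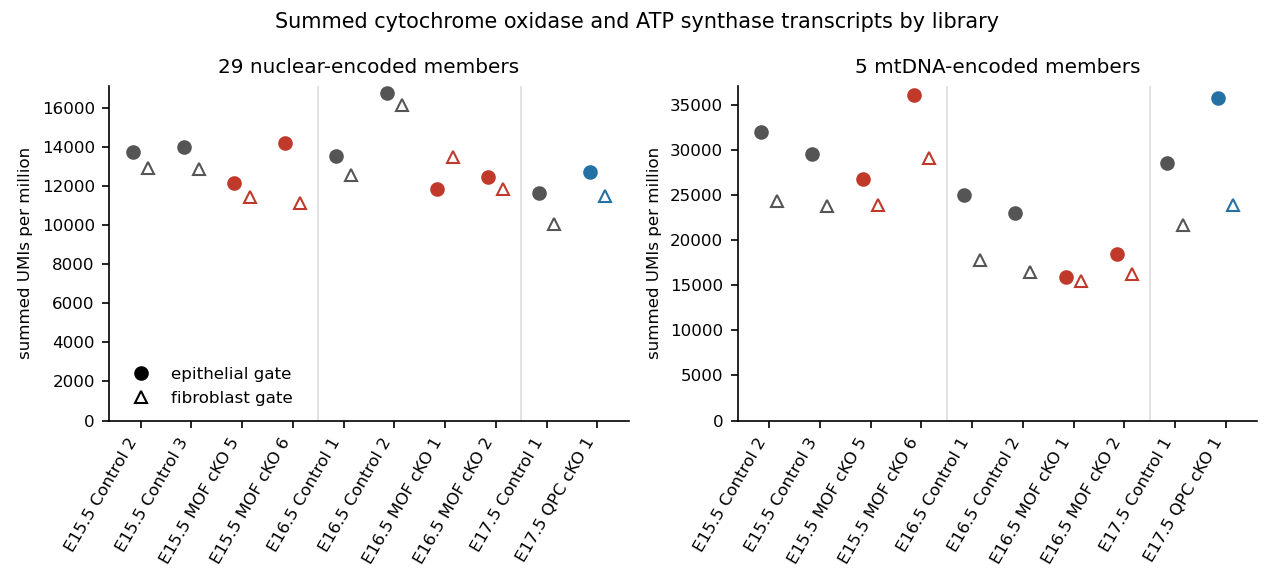
Summed CPM of the 29 nuclear-encoded and the 5 mtDNA-encoded members in each library, as filled circles for the epithelial gate and open triangles for fibroblasts. At E16.5 the MOF cKO epithelium lies below both controls in both panels, and at E15.5 the MOF cKO libraries 5 and 6 lie apart.

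Gene by gene, 0 of 33 members tested passed between MOF cKO and control epithelium at E15.5, where 0% of 14625 genes passed by edgeR. At an unadjusted p under 0.05 there were 0 members, beside 9.3% of all genes, and DESeq2 called 0 members and 0.957% of genes. The fitted log2 changes had a median of 0.04 over the nuclear and 0.18 over the mtDNA-encoded members, beside -0.01 over all genes. With the library size alone as scaling these medians were -0.08, 0.07 and -0.13, so that the sign over the nuclear members rests on the scaling. The members with the smallest p were Atp5d, with 532 and 545 CPM in the controls and 597 and 619 CPM in MOF cKO (log2 change 0.31, SE 0.14, edgeR adjusted p = 0.503), and Atp5b, with 882 and 872 CPM against 909 and 1026 CPM (0.27, SE 0.12, edgeR adjusted p = 0.503).

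The MOF cKO libraries at E15.5 differed from each other more than the controls did. MOF cKO 5 was lower than both controls and MOF cKO 6 higher for 3 of the 5 mtDNA-encoded members (mt-Co1, mt-Co2 and mt-Co3), as mt-Co3 shows with 6613 and 11594 CPM against 10176 and 9454 CPM in the controls. Without the mosaic library 6, 7 members were called higher and 4 lower in MOF cKO 5, beside 45.5% of 15415 genes. The members then higher were Cox4i2, Atp5d, Cox7c, Cox5a, Atp5b, mt-Atp6 and Cox4i1, and those lower Atp5k, mt-Co3, Atp5e and Atp5h. Cox4i2 read 8.5001 CPM in MOF cKO 5 against 3.04 and 3.63 CPM in the controls, and the pericyte marker Rgs5 moved with it in the same gate, at 10.9 CPM against 2.09 and 2.86 CPM. The part of pericyte RNA in that value was not tested. Atp5k, subunit e of ATP synthase, read 141 and 165 CPM in the controls, 88.4 CPM in MOF cKO 5 and 166 CPM in MOF cKO 6. With 1 MOF cKO library, its spread is taken from the controls, and 1 embryo stands for the genotype.

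At E16.5, 0 of 32 members passed in the epithelium, where 5.82% of 9938 genes passed, and 2 members reached an unadjusted p under 0.05, beside 28.1% of all genes. Cox6a1 read 352 and 426 CPM in the controls and 523 and 481 CPM in MOF cKO, and the groups did not overlap. On this scale 1268 of 9938 genes lay higher without overlap and 5605 lower, with 1 and 16 of the 32 members. With TMM scaling these were 2836 and 3487 genes, with 8 and 4 members. For Cox6a1 the fit gave the following. The log2 change was 0.95 (SE 0.33, edgeR adjusted p = 0.126). Cox4i2 read 39.4 and 7.92 CPM in the controls and 1.73 and 2.499 CPM in MOF cKO (log2 change -2.74, SE 1.07, edgeR adjusted p = 0.160), from 1 and 2 UMIs in MOF cKO, and the higher control is the library with many fibroblast transcripts in this gate. Among cells with more keratin than collagen UMIs the controls read 19.04 and 2.81 CPM, and with at least 20 keratin UMIs they read 1.68 and 2.71 CPM against 1.74 and 2.499 CPM in MOF cKO. In the looser gate of at least 5 keratin UMIs the change turned to 1.03 (edgeR adjusted p = 0.254), so that its direction rests on the gate.

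The direction of the members at E16.5 depended on the scaling. With TMM scaling the nuclear members had a median log2 change of 0.27 and all genes -0.11, whereas with the library size alone these were -0.32 and -0.71. The mtDNA-encoded members had a median of 0.15 with TMM and -0.45 with the library size, while their summed CPM was lower in MOF cKO. The nuclear cytochrome oxidase members had a median of 0.62 with 11 of 12 above 0, and the nuclear ATP synthase members -0.07 with 7 of 15 above 0, both with TMM and beside 46% of all genes. With the library size alone these were 0.04 with 7 of 12 above 0 and -0.67 with 1 of 15, beside the median of -0.71 over all genes. The share of all genes above 0 on that scaling is not given here. The head subunit Atp5a1 read 852 and 847 CPM in control and 317 and 459 CPM in MOF cKO cells, while Cox7c, a small membrane subunit, read 407 and 747 CPM against 789 and 567 CPM. Without E16.5 Control 2, which leaves Control 1 with its many fibroblast transcripts as the control, 6 members were called (Cox7c, Atp5l, Cox6b1, Cox7b and Cox6a1 higher, Cox4i2 lower), beside 13.5% of 8250 genes. The MOF cKO sums here rest on 30 and 39 cells.

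The effect of MOF cKO was compared between stages directly, and 0 of 34 members passed, beside 0.11% of 13602 genes. The smallest p values were those of Cox4i2 (difference -3.76, SE 1.42, edgeR adjusted p = 0.253, but 0.25 in the looser gate) and Cox6a1 (0.73, SE 0.34, edgeR adjusted p = 0.335), with 1 and 0 members at an unadjusted p under 0.05 in cytochrome oxidase and ATP synthase, beside 16.3% of all genes. DESeq2 called 0 members and 4.92% of genes.

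Epithelial cells nearly devoid of mtDNA-encoded transcripts made up much of the E16.5 MOF cKO gate. A limit of 2000 CPM summed over the 5 mtDNA-encoded members was set after seeing the values. Under it lay 13 of 30 cells (43.3%) in MOF cKO 1 and 15 of 39 (38.5%) in MOF cKO 2, against 8 of 266 (3.01%) and 9 of 512 (1.76%) in the controls. At E15.5 these were 1 of 2635 and 4 of 2896 cells in the controls and 14 of 1061 and 12 of 1648 in MOF cKO, and at E17.5 9 of 3069 in the control and 7 of 1162 in QPC cKO. No fibroblast of the E16.5 libraries lay under the limit, and 4 fibroblasts of the other libraries did (2 in E15.5 Control 2, 1 in MOF cKO 6 and 1 in the E17.5 control).

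In these cells the nuclear members were still present. They summed to 10427 and 10438.5 CPM in the low cells of E16.5 MOF cKO 1 and 2 and to 12612 and 12814 CPM in the other epithelial cells. There mt-Co1 read 79.6 and 65.1 CPM against 4483 and 4408 CPM, but it belongs to the sum that set the limit, so this gap follows from the choice of cells. The low cells had 119 and 130 CPM of the nuclear RNA Malat1 against 3508 and 4683 CPM, and 10447 and 6815 CPM of the cornified envelope gene Sprr1a against 507 and 38.4 CPM. Krt14 read 25339 and 29402 CPM in them and 9459.99 and 9912 CPM in the others. Other differentiation genes were also read in these cells and are not given here. The suprabasal gate, set by keratins, held 2 of the 30 and 6 of the 39 epithelial gate cells of these libraries. The low cells of the controls had no Sprr1a UMI, 928 and 970 CPM of Malat1, and 11987 and 18443 CPM of the nuclear members. Their median depth was 5070 and 5164 UMIs, against 15580 and 6369 UMIs in the low cells of MOF cKO. The compared genes were chosen after their values were seen, and the source of these cells was not tested.

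Without the low cells, the mtDNA-encoded members summed to 24051 and 21773 CPM in MOF cKO and 25486 and 23203 CPM in the controls, and the log2 ratio went from -0.49 to -0.09. Since the cells left out were chosen for a low value of this sum, the change was fixed by that choice and is no result. The ratio of the nuclear members went from -0.31 to -0.25, with 0 members called as before.

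**Figure D4:**
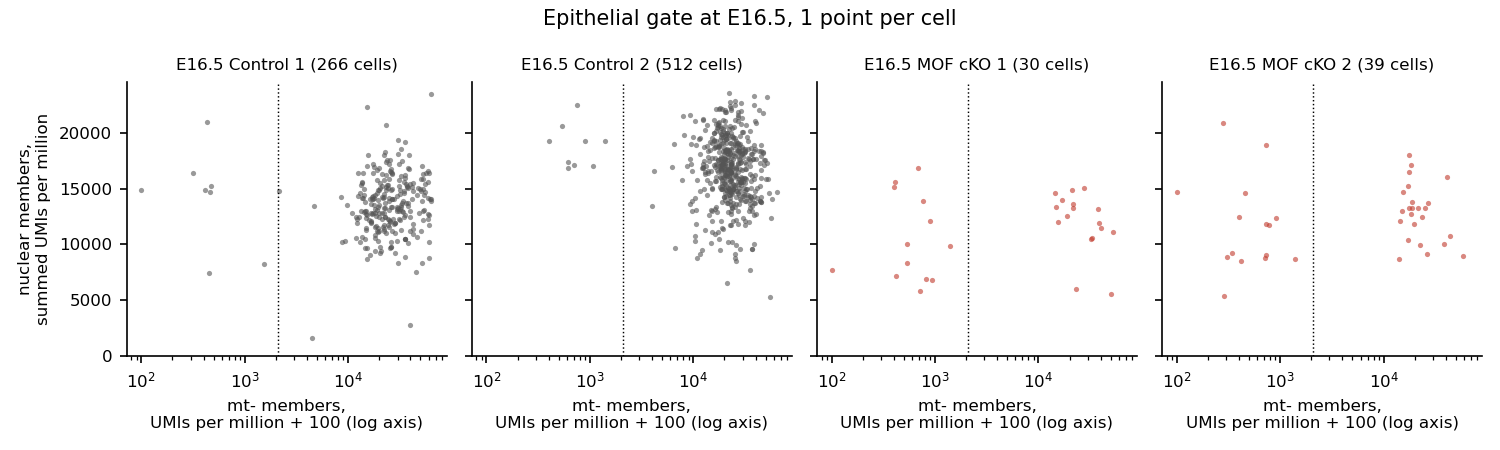
Each point is 1 epithelial gate cell at E16.5, with the summed mtDNA-encoded members (CPM plus 100, log axis) across and the summed nuclear members up, and a dotted line at the limit of 2000 CPM. In MOF cKO 13 of 30 and 15 of 39 cells lie left of the line, and their nuclear members summed to 10427 and 10438.5 CPM, against 12612 and 12814 CPM in the cells to the right.

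In fibroblasts, in which Krt14-Cre is not expected to act, the nuclear members read lower in the MOF cKO libraries of E15.5 by a small amount, although none passed the adjusted threshold. Their sum read 12922 and 12893 CPM in the controls and 11464 and 11141.5 CPM in MOF cKO 5 and 6, a log2 ratio of -0.19 (SD 0.03). Of 34 members 0 were called by edgeR, where 0% of 16268 genes were, and 19 reached an unadjusted p under 0.05, beside 15.6% of all genes. DESeq2 called 7 members, each lower, beside 1.59% of genes called lower. The nuclear members had a median log2 change of -0.22 beside 0.00 over all genes, and 27 of 29 were below 0, all 15 of ATP synthase among them, beside 49.6% of all genes. In 26 of 34 members both MOF cKO libraries lay below both controls, as in 24.6% of all genes.

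Cox6c showed the smallest p. It read 1090 and 1012 CPM in the controls and 768 and 746 CPM in MOF cKO fibroblasts (log2 change -0.50, SE 0.08, edgeR adjusted p = 0.181). Atp5k read 142 and 156 CPM against 124 and 131 CPM (-0.25, SE 0.06, edgeR adjusted p = 0.214). Of 11 genes of complex III and cytochrome c 0 passed and 10 were below 0 (median -0.20), whereas the 13 genes of mtDNA expression and biogenesis had a median of 0.03. The mtDNA-encoded members summed to 24349 and 23790 CPM in the controls and 23951 and 29118 CPM in MOF cKO.

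At E16.5 the nuclear sums of fibroblasts overlapped between the groups. They read 12580 and 16144 CPM in the controls and 13492 and 11878 CPM in MOF cKO (log2 ratio -0.17, SD 0.29), and the mtDNA-encoded sum 17799 and 16444.6 CPM against 15533.5 and 16321 CPM (-0.10, SD 0.10). Of 33 members 0 passed, beside 4.64% of 12569 genes, and 2 reached an unadjusted p under 0.05, beside 25.2% of all genes. Cox7a1 read 1.39 and 1.46 CPM in the controls and 4.74 and 2.98 CPM in MOF cKO (1.51, SE 0.42, edgeR adjusted p = 0.102). Cox5a read 272 and 303 CPM against 188 and 172 CPM (-0.55, SE 0.18, edgeR adjusted p = 0.136).

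Cox5a was also the member with the smallest p for a difference in the MOF cKO effect between epithelium and fibroblasts. At E15.5 its epithelial levels were 507 and 544 CPM in the controls and 563 and 555 CPM in MOF cKO, whereas the fibroblast levels were 306 and 321 CPM and 271 and 262 CPM. The difference between the effects was 0.45 (SE 0.12, edgeR adjusted p = 0.589) at E15.5 and 1.08 (SE 0.25, edgeR adjusted p = 0.102) at E16.5. Cox7c had the next smallest p at E15.5, with 453 and 491 CPM against 505 and 476 CPM in the epithelium and 519 and 547 CPM against 459 and 434 CPM in fibroblasts (0.44, SE 0.13, edgeR adjusted p = 0.589). At E16.5 it was Cox6a1, which read 371 and 541 CPM against 413 and 409 CPM in fibroblasts (0.85, SE 0.24, edgeR adjusted p = 0.137). It was called in the stricter gate (edgeR adjusted p = 0.0135) and by DESeq2 (adjusted p = 0.0486). The share of all genes called in those alternative fits is not given here, so these calls are not read as a result about Cox6a1. In both stages 0 members passed, beside 0% of 16479 genes and 0.38% of 13169 genes. At E15.5, 9 members reached an unadjusted p under 0.05, beside 7.24% of all genes, and 27 of 29 nuclear members had a difference above 0 (20 of 29 with the library size alone, beside 46.9% of all genes with TMM). At E16.5, 5 members reached an unadjusted p under 0.05, beside 20.1% of all genes. Where keratin exceeded collagen in the epithelium, Cox5a was called at E16.5 (0.94, edgeR adjusted p = 0.0401), as 1 member beside 5.8% of 13151 genes.

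That comparison at E15.5 gave calls with either MOF cKO library alone. Without library 5, 13 members were called, beside 2.45% of genes, and without library 6, 18 members, beside 37.5% of genes. These calls were all higher in the first case, and 16 higher and 2 lower (mt-Co3 and Atp5k) in the second. Cox5a read 0.39 and 0.54 and Atp5b 0.36 and 0.40 in the order of these fits, whereas Atp5k was called in both directions, at 0.36 and -0.30. Both fits compare 1 MOF cKO embryo with the same 2 controls.

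With 1 library for each genotype at E17.5, the differences have no replicate check and no test, and intervals cover counting error only. Cox6a2 differed most among the members in the epithelial gate. The control held 70 UMIs in 28 of 3069 cells, with 36 of the UMIs in 1 cell, and QPC cKO held 241 UMIs in 98 of 1162 cells, with at most 12 in a cell. The levels were 0.959 CPM (95% Poisson interval 0.748 to 1.21) in the control and 8.42 CPM (7.39 to 9.55) in QPC cKO, a ratio of 8.78 (6.70 to 11.6). Of genes that reached 100 UMIs in either of the 2 libraries, 4.49% were at least 1.5 times higher in QPC cKO and 17.9% lower by as much.

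The Cox6a2 UMIs of QPC cKO lay in cells with almost no muscle transcript. Without cells at the muscle limit the control kept 19 UMIs in 17 cells and QPC cKO 240 UMIs in 97 cells, or 0.264 and 8.39 CPM. In the 97 cells Acta1 had 1 UMI and Myl1 and Tnnc2 had 0. With every cell thinned to 10000 UMIs, 12 of 2999 control cells (0.400%, exact interval 0.207 to 0.698%) and 51 of 1121 QPC cKO cells (4.55%, 3.41 to 5.94%) had a Cox6a2 UMI, with 70 and 41 cells left out as too shallow. Before thinning these shares were 0.912 and 8.43%, at median depths of 24108 and 25422 UMIs.

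In fibroblasts, outside the reach of Krt14-Cre, Cox6a2 showed no such gap. It read 0.9998 CPM in the control and 1.15 CPM in QPC cKO, a ratio of 1.15 (0.765 to 1.77), and 14 of 1668 (0.839%) and 42 of 3185 (1.32%) thinned cells had a UMI. The share in the control epithelium lay below the share in its fibroblasts, whereas the share in the QPC cKO epithelium lay above that of either. These shares include cells at the muscle limit, of which the fibroblast gate held 27 in the control and 25 in QPC cKO. Their part in the fibroblast values was not tested. Where keratin exceeded collagen, the epithelial levels were 1.20 and 9.06 CPM, and with at least 20 keratin UMIs 0.241 and 9.21 CPM.

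The Cox6a2 cells of the groups also differed in differentiation genes. In the control, the 17 cells had 14176 CPM of the suprabasal keratin Krt1 against 845 CPM in the other cells. In QPC cKO, 92 of the 97 cells were in the basal gate, as were 1144 of the 1162 cells of the whole epithelial gate. Krt1 read 1504 CPM in the 97 cells and 545 CPM in the 1063 others, with 7650 and 6584 CPM of the basal keratin Krt5. Transcripts of amino acid starvation and mitochondrial stress responses were read in the 97 cells and in the others. The pseudokinase Trib3 read 52.5 CPM against 13.2 CPM, the transcription factor Atf5 420 against 189 CPM, the mitochondrial folate enzyme Mthfd2 144 against 65.4 CPM, asparagine synthetase Asns 193 against 94.3 CPM, the hormone Stc2 41.5 against 10.8 CPM and Fgf21 11.7 against 2.52 CPM. Others of the 16 genes read differed less, as Atf4 (182 against 148 CPM), Phgdh (441 against 338 CPM), Psat1 (271 against 175 CPM) and Ddit3 (49.9 against 35.4 CPM). The ratios ran from 1.23 for Atf4 to 4.86 for Slc7a3, apart from Gdf15, which read 0.364 against 1.08 CPM, the first from 1 UMI. The 17 cells of the control stood to its other cells by like ratios for some of these genes, with 7.91 against 1.99 CPM of Trib3, 61.3 against 31.7 CPM of Asns and 11.9 against 2.09 CPM of Stc2, from 4, 31 and 6 UMIs in the 17 cells. The control's ratios for the other genes of the 16 are not given here. The difference between the groups was not tested. The chemokine Ccl20, outside that list, read 131 against 1.97 CPM. These genes were chosen after values of these data were seen, the cells come from 1 library, and the median depth was 27993 UMIs in the 97 cells and 24962 UMIs in the others. Uqcrq read 36.1 and 44.1 CPM.

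**Figure D5:**
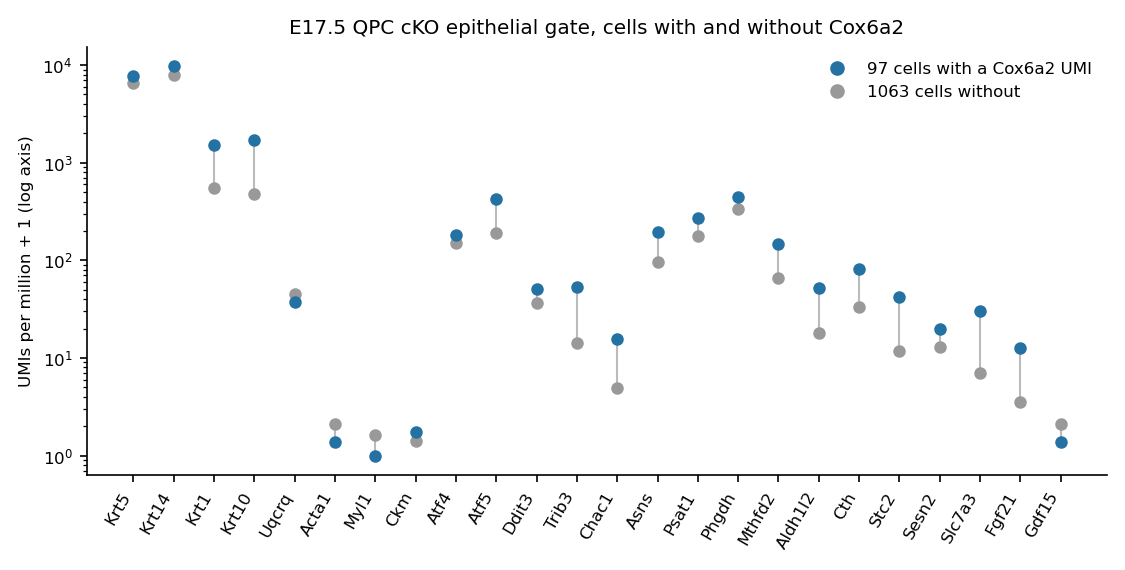
CPM plus 1 (log axis) of keratins, Uqcrq, muscle genes and stress response genes in the 97 epithelial gate cells of the E17.5 QPC cKO library with a Cox6a2 UMI (blue) and in the 1063 without (grey), each a sum over cells of 1 library. Trib3, Slc7a3 and Stc2 are higher in the cells with Cox6a2, Gdf15 is lower, and the muscle genes are near 0 in both.

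The nuclear members summed to 11636 CPM in the control and 12718 CPM in QPC cKO, a log2 ratio of 0.13 (0.12 to 0.13). Of 28 with at least 100 UMIs 23 were higher and 5 lower (median log2 ratio 0.16, beside -0.01 over 13024 genes, of which 49.3% were higher). Where keratin exceeded collagen, the sums were 12831 and 12876 CPM, and 12 of 27 were higher and 15 lower (median -0.02), beside 40.1% of 11519 genes higher. Cox4i2 read 31.3 CPM in the control and 10.4 CPM in QPC cKO, but 1.64 and 1.07 CPM in that second gate, and Cox6c 817 and 615 CPM, but 560 and 552 CPM there. Atp5h, a stalk subunit of ATP synthase and the member with the next smallest ratio, read 519 and 511 CPM.

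In the epithelial gate as a whole the 5 mtDNA-encoded members read higher in QPC cKO, whereas among cells with more keratin than collagen mt-Atp6 did not (9466 CPM in the control and 9276 CPM in QPC cKO). They summed to 28570 CPM in the control and 35823.5 CPM in QPC cKO, a log2 ratio of 0.33 (0.67 without the limit on mtDNA UMIs), and to 34177.5 and 36790.3 CPM where keratin exceeded collagen. mt-Co1 read 4928 and 7020 CPM and mt-Co2 5577 and 7642 CPM, and in the second gate 5986 and 7249 CPM and 6649 and 7857 CPM. These ratios were the highest among the mtDNA-encoded members in both gates.

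Fibroblasts of the QPC cKO library had higher values than control fibroblasts for each of the 28 nuclear members with at least 100 UMIs, beside 67.4% of all such genes. Their sum read 10061 CPM in the control and 11488 CPM in QPC cKO (log2 ratio 0.19), with a median of 0.18 over the nuclear members beside 0.10 over 12289 genes. Cox7a1 read 1.72 and 3.49 CPM, Atp5k 139 and 185 CPM and mt-Atp8 13.0 and 17.4 CPM, which were the largest rises in ratio, while Atp5f1 (336 and 346 CPM), Cox7a2l (224 and 232 CPM) and Atp5g3 (217 and 228 CPM) were the smallest. The fibroblast gate also holds 176 of the 219 pericyte gate cells in the control and 195 of the 252 in QPC cKO. Their part in the Cox7a1 values was not tested. Of all genes 5.33% were at least 1.5 times higher and 4.14% lower by as much. The genes of cytochrome oxidase assembly (median 0.23) and of complex III (median 0.23) lay on the same side, and Uqcrq itself read 69.4 and 122 CPM.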

How the data were processed

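Single-cell suspensions of total back skin were profiled with 10x Genomics 3' kits (v2 at E16.5, v3 at E17.5, v3.1 at E15.5). The deposited matrices hold UMI counts per gene and barcode, made by the authors with Cell Ranger on mm10. The submitters' processing notes name Cell Ranger 6.1.2 for all libraries and also 1.3.1 for E16.5 and E17.5. No normalization had been applied. The gene lists of the stages share 27040 gene IDs.

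Cells were filtered on detected genes (over 1000, under 6000) and mtDNA UMIs (under 10%, which bounds the mt- members), then gated on the summed UMIs of the named marker genes. Doublets were not called. Counts were summed per library and gate and tested in edgeR 4.0.16 (filterByExpr, TMM, quasi-likelihood test; limma 3.58.1, R 4.3.3), with Benjamini-Hochberg adjustment over all genes tested at 0.05. The library was a block where gates of the same library were compared. SE is the absolute log2 fold change over the square root of F. DESeq2 1.42.0, other gates, filters and scalings, and leaving out each library were alternatives. Sums, intervals, thinning to 10000 UMIs per cell and promoter scans used Python 3.11.15.

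Members were given in full where they belong to an isoform set, were called (the 3 largest rises and falls beyond 6 calls) or had the 2 smallest p where none was called, and at E17.5 where the ratio was among the 3 largest or smallest. Others that are named were chosen after their values were seen. Members and gene lists were chosen with earlier results of these data known. The labels do not say whether replicates are separate embryos. The study describes pairs of control and MOF cKO samples at E15.5 and E16.5 and calls those of E15.5 embryos. The p-values measure the spread between libraries. Kept cells numbered 716 to 10653 per library, and the epithelial sums rest on 577644 UMIs or more. Intervals cover counting error only. The edgeR fit was tested on simulated data.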

Additional observations from a re-analysis of the deposited data

How the results depend on the processing

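Over all alternatives, counts of calls and summed ratios moved by less than their limits in 224 cases and by more in 48. The fitted change of a named member kept its direction and its side of the threshold in 344 cases, gained a call in 20, lost one in 11 and changed direction in 2. Precision is limited by the 30 and 39 epithelial cells of the E16.5 MOF cKO libraries and by 1 library per group at E17.5. Where 1 library of a group was left out, the lone library is assumed to vary like the others.

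The log2 ratio of the summed nuclear members in the E17.5 epithelium (0.13) was 0.14 without mt- genes in the denominator, 0.24 without mt- and ribosomal protein genes, 0.10 without the limit on mitochondrial UMIs, 0.17 under 5% mitochondrial UMIs, 0.0079 in the stricter gate, 0.11 as a mean over cells and 0.0051 where keratin exceeded collagen. In E17.5 fibroblasts (0.19) it was 0.22 without mt- and ribosomal protein genes, 0.20 in the stricter gate and 0.17 as a mean over cells. For the mtDNA-encoded sum, the E16.5 epithelial ratio (-0.49) was -0.18 without the limit, -0.19 in the looser gate, -0.72 as a mean over cells and -0.088 without the cells low in mt- transcripts. The E17.5 epithelial ratio (0.33) was, in the order of the first list, 0.34, 0.44, 0.67, 0.27, 0.11, 0.31 and 0.11, and 0.17 in the looser gate. The E17.5 fibroblast ratio (0.14) was 0.15, 0.17, 0.13, 0.12, 0.13 and 0.15 in that order without the last setting, and 0.14 in the looser gate.

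With no filter on low counts 1 member was called in the E16.5 epithelium, in E15.5 and in E16.5 fibroblasts and between stages (each 0 otherwise), and 4 between suprabasal and basal cells (7 otherwise), as under 5% mitochondrial UMIs. These counts stand without the share of all genes called in the same fits, and show only that the calls move with the setting. DESeq2 called 7 members in E15.5 fibroblasts, each lower, beside 1.59% of genes called lower. For the difference between gates at E16.5 the keratin above collagen gate called 1 member, beside 5.8% of genes. There DESeq2 and the stricter gate each called 2 members. The share of all genes called in those fits is not given here, so these counts are not read as results about the members. In the looser gate the log2 change of Cox4i2 was 1.03 in the E16.5 epithelium and 0.25 between stages, both negative otherwise. The cause of these changes was not tested.

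Leaving out 1 library gave 0 to 11 called members in the epithelium at E15.5, 0 to 6 at E16.5, 0 to 0 in fibroblasts at either stage, 0 to 18 and 0 to 2 for the difference between gates at E15.5 and E16.5, 0 to 1 between stages, 18 to 27 for epithelium against fibroblasts and 3 to 5 for suprabasal against basal cells. These counts stand here without the share of all genes called in the same fits. They show only that the calls move with the library left out, and are not read as results about the members. The summed nuclear ratio ranged from -0.19 to 0.03 and from -0.47 to -0.16 in the epithelium at E15.5 and E16.5. In fibroblasts it ranged from -0.21 to -0.17 and from -0.35 to 0.01. The mtDNA-encoded ratio ranged from -0.20 to 0.23 and from -0.60 to -0.38 in the epithelium, and from -0.01 to 0.27 and from -0.16 to -0.05 in fibroblasts. With the replicate number as a block at E16.5, 0 members were called in the epithelium (549 genes, 578 without the block) and 0 in fibroblasts (576 genes, 583 without). Deviations of same-numbered libraries correlated at -0.04 over 4655 genes in the epithelium and -0.16 over 5507 genes in fibroblasts. With 2 libraries per group this cannot decide whether the numbers pair the samples. The crossed pairing in fibroblasts, chosen after seeing the data, called 0 members and 651 genes.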
